A study of Mus musculus with 13 samples.

Results

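*Pou5f1*, *Sox2*, *Nanog*, *Klf4*, *Esrrb*, *Zfp42*, *Dppa2*, *Dppa3*, *Dppa4* and *Gdf3* are the core genes of the pluripotent state whose position relative to chromocenters is described here. These 10 genes were taken from a fixed list of names and were found among 22329 protein-coding genes that could be placed on the calls by the midpoint of their longest transcript. They lie at 7 loci, since *Gdf3*, *Dppa3* and *Nanog* are neighbors on Chromosome 6 and *Dppa4* and *Dppa2* are neighbors on Chromosome 16. Genes of a cluster share domains and therefore do not give independent values.

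Satellite 4C (sat4C) sequences DNA that was ligated to major satellite repeats, and thereby finds the regions that lay close to chromocenters, the nuclear bodies in which the pericentromeric heterochromatin of several mouse chromosomes aggregates. The regions so found are called pericentromere-associated domains (PADs), and the sequence between them non-PADs. The assay was done on embryonic stem cells (ESCs) of the line IB10 (strain 129/ola; 3 replicates), on neural precursor cells (NPCs; 2 replicates) that had been derived from these ESCs, on astrocytes (ACs; 2 replicates) that had been derived in turn from the NPCs, and on dissociated thymus of adult male C57BL/6 mice (3 mice, 6 sets of reads). The labels name no drug treatment or targeted allele for any group. Each cultured cell type goes back to the same ESC line, and the thymus differs from the cultures in strain and holds a mixture of cells. Strain, culture and cell type therefore cannot be told apart in any comparison with the thymus.

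Every 4C fragment end carries 1 call per cell type, PAD or non-PAD, which combines the replicates by majority vote. Ties, which can occur with the 2 replicates of NPCs and ACs, were settled by a further virtual replicate made from the pooled reads, and calls so settled cannot be recognized. The calls hold neither read counts nor the votes of single replicates, so the depth of each call is unknown, no SD can be given and no test between cell types was possible. Differences between cell types are differences between these combined calls. PADs covered between 48.4% of the called genome in the thymus and 68.0% in NPCs. The NPC calls were broad throughout, so that a PAD call in NPCs was the more common state for a gene.

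The products of *Pou5f1*, *Sox2* and *Nanog* are transcription factors that act together at shared enhancers of pluripotency genes, including their own. *Klf4* and *Esrrb* encode transcription factors of the naive network, and *Zfp42* (also known as *Rex1*) encodes a zinc finger protein that is widely used as a marker of naive ESCs. *Dppa2* and *Dppa4* encode chromatin factors with SAP domains that act as a pair, *Dppa3* (also known as *Stella*) encodes a maternal factor that protects DNA methylation in the zygote, and *Gdf3* encodes a ligand of the TGF-beta superfamily. *Sox2* is also expressed in neural precursors, and *Klf4* in several somatic tissues. Expression was not measured in the calls analysed here.

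A fragment end runs from a site of MfeI (CAATTG) to the nearest site of NlaIII (CATG), or the reverse, and it is the unit in which a domain is read. Selected ends, at the AC borders of the 2 clusters and near *Pou5f1*, *Klf4* and *Zfp42*, are printed with the sequence of mm9 on the plus strand, with the restriction sites in capitals. In ACs, the call changed between *Dppa3* and *Nanog* from a fragment end to the next, which share an NlaIII site, with a non-PAD end on the side of *Dppa3* (chr6:122594924-122595169) and a PAD end of 18 bp on the side of *Nanog* (chr6:122595166-122595183). Both ends lie outside annotated transcripts.
Last non-PAD end of ACs after Dppa3: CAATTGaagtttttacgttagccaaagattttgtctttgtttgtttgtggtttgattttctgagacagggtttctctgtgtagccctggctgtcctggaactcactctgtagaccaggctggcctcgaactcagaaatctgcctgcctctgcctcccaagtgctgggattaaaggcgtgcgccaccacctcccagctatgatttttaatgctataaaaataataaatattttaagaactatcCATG
First PAD end of ACs before Nanog: CATGccatcaccCAATTG

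At *Dppa4* and *Dppa2*, the last non-PAD end of ACs lies in an intron of *Dppa2* (chr16:48312361-48312434) and the first PAD end lies beyond the gene (chr16:48347047-48347145). The single end within *Dppa4* is intronic as well and measures 26 bp (chr16:48285414-48285439). The ends in *Dppa4* and *Dppa2* were non-PAD in ACs and PAD in the other 3 cell types. The end beyond *Dppa2* was PAD in all 4 and is shown because it lies across the AC border.
End in an intron of Dppa4: CAATTGgaaactgtccctaggcCATG
End in an intron of Dppa2: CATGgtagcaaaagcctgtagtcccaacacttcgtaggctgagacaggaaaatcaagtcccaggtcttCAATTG
First PAD end of ACs beyond Dppa2: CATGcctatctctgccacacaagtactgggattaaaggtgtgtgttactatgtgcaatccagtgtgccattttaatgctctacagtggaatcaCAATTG

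*Pou5f1*, *Nanog* and *Klf4* have no fragment end within their bodies. The nearest end of *Pou5f1* (chr17:35624606-35624771) lies 20.7 kb from the midpoint, outside annotated transcripts, and its call stands for the gene. The nearest end of *Nanog* lies 8.84 kb from the midpoint of that gene. The nearest end of *Klf4* (chr4:55538814-55538872) lies 3.87 kb from the midpoint, outside annotated transcripts, and the single end within *Zfp42* (chr8:44390605-44390685) lies in an intron. *Klf4* and *Zfp42* are shown because they were the only core genes outside PADs in NPCs.
Nearest end of Pou5f1: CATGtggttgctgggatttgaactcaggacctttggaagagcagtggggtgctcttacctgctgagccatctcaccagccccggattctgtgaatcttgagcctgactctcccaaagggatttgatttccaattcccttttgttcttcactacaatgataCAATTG
Nearest end of Klf4: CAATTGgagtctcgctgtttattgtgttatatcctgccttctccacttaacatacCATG
End in an intron of Zfp42: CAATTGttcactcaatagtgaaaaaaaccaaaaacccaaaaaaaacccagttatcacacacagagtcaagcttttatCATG

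Of the 10 core genes, 6 lay in PADs in ESCs, which are known to express them, compared with 46.5% of all protein-coding genes. These were *Sox2*, *Nanog*, *Dppa2*, *Dppa3*, *Dppa4* and *Gdf3*. In NPCs, 8 of 10 lay in PADs, as *Pou5f1* and *Esrrb* joined the former 6, compared with 68.5% of all genes. In ACs, 1 of 10 lay in a PAD, which was *Nanog*, compared with 34.9% of all genes. In the thymus, 6 of 10 lay in PADs, namely *Nanog*, *Zfp42*, *Dppa2*, *Dppa3*, *Dppa4* and *Gdf3*, compared with 26.1% of all genes. Counted as loci, a core gene lay in a PAD at 3 of 7 in ESCs, 5 in NPCs and 1 in ACs, and at 3 in the thymus, and ACs were the cell type in which a cluster was split. With 7 loci, the shares of the genes can move by several genes through 1 locus, and no test was made of these counts.

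**Figure D1:**
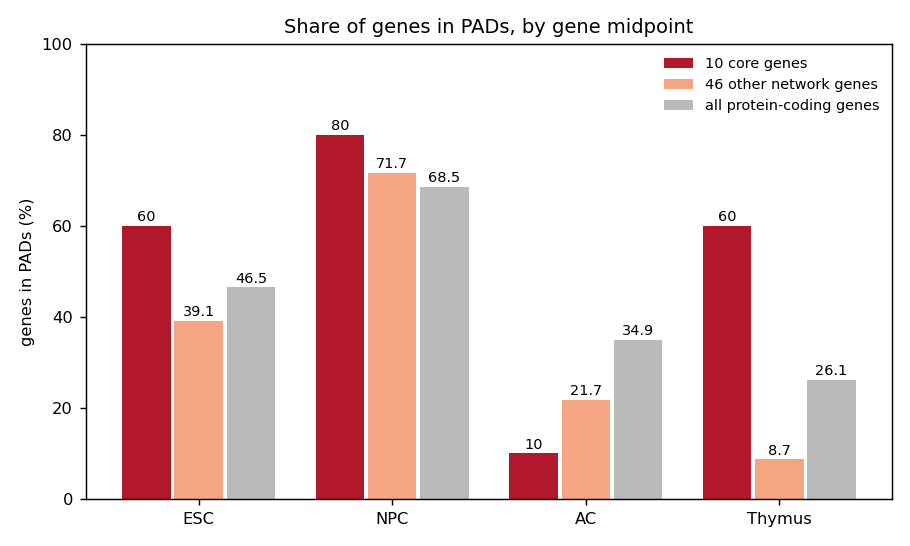
Percentage of genes in PADs (y axis, from 0) in the 4 cell types (x axis) for the 10 core genes, 46 other genes of the pluripotency network and all 22329 placed protein-coding genes. The bars hold no error, since each cell type has 1 combined call per fragment end. The core genes stand at 10% in ACs and at 60% in the thymus, and the other network genes at 8.7% in the thymus. Genes of a cluster are counted singly, and the core genes in thymus PADs lie at 3 of 7 loci.

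The calls of 2 genes were the same in all 4 cell types, *Nanog* in PADs and *Klf4* in non-PADs, compared with 34.8% of all genes. *Pou5f1* and *Esrrb* were in PADs in NPCs only, a pattern shared by 23.9% of all genes, and *Sox2* was in PADs in ESCs and NPCs only, as were 12.2% of all genes. *Zfp42* was in a PAD in the thymus only (2.94% of all genes). The 4 genes *Dppa2*, *Dppa3*, *Dppa4* and *Gdf3*, at 2 loci on different chromosomes, were in PADs in ESCs, NPCs and thymus and outside PADs in ACs. This pattern was found at 311 of all 22329 genes (1.39%).

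The direction of the differences was mixed. Between ESCs and thymus, *Sox2* was in a PAD in ESCs and outside in the thymus, as were 26.5% of all genes, and *Zfp42* was outside in ESCs and in a PAD in the thymus, as were 6.06% of all genes. The other 8 had the same call in both. Between ESCs and ACs, 5 genes were in PADs in ESCs and outside in ACs, compared with 17.2% of all genes, whereas 0 differed in the opposite direction, compared with 5.62%. The 5 genes were *Sox2* and the 4 genes of the rarer pattern, at 3 loci. Between ACs and thymus, 5 genes were outside PADs in ACs and in PADs in the thymus, compared with 6.66% of all genes, and 0 the other way around, compared with 15.5%. These 5 were *Zfp42* and the 4 genes of the rarer pattern, at 3 loci.

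**Figure D2:**
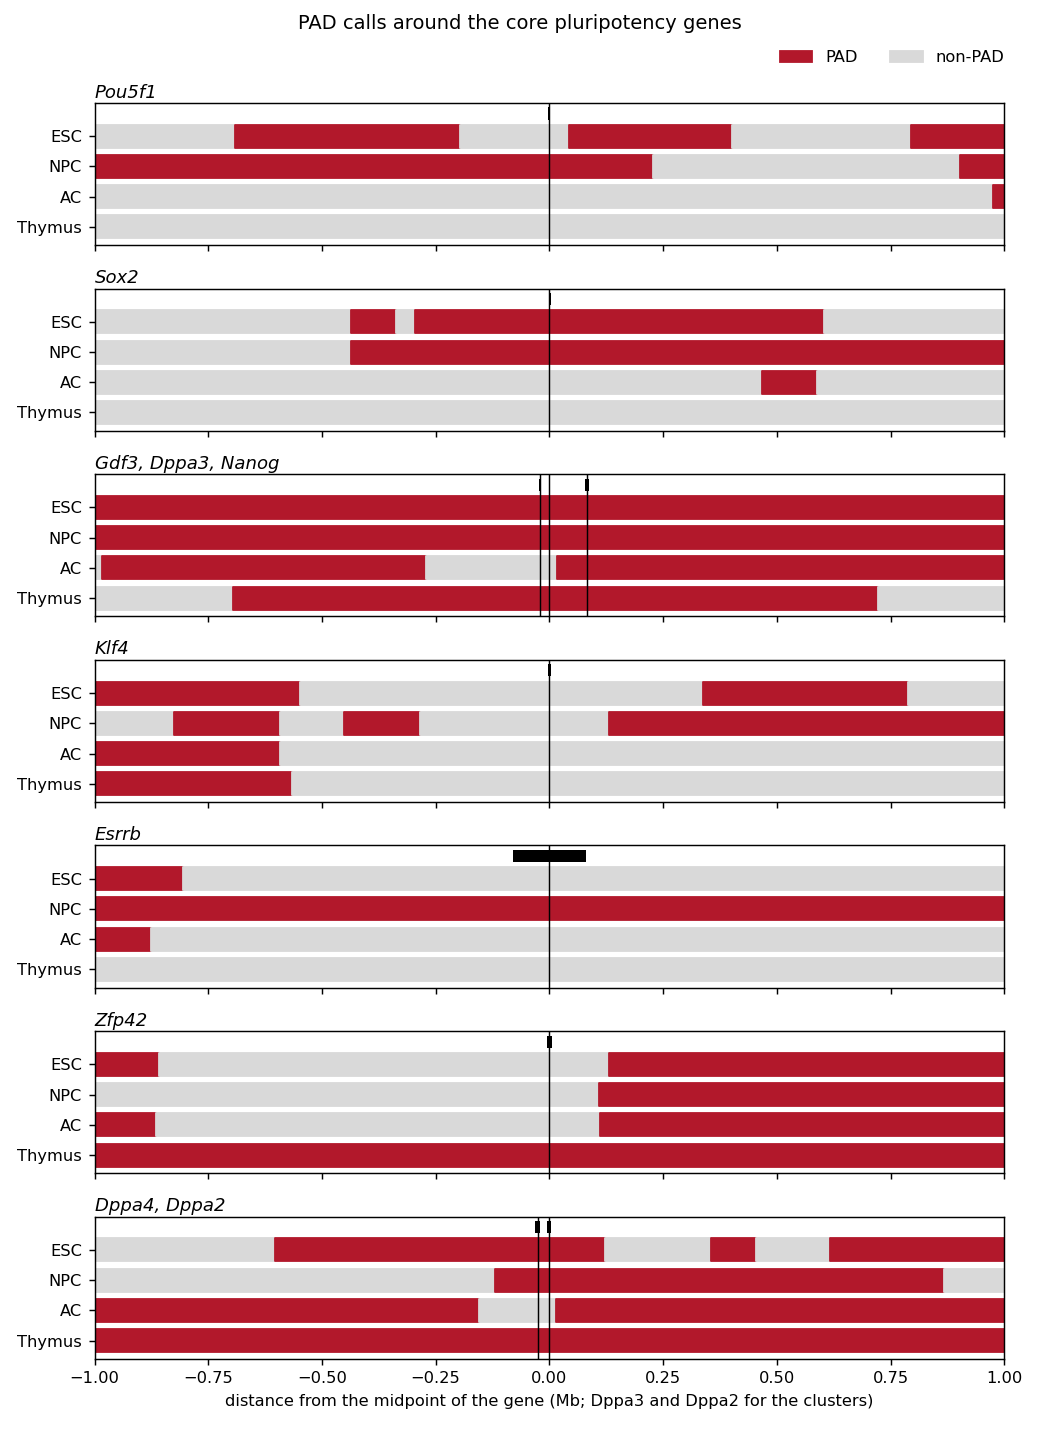
PAD (red) and non-PAD (gray) domains in the 4 cell types around the 7 loci, with the distance from the midpoint of the gene in Mb on the x axis and gene bodies as black blocks with a line at their midpoint. The non-PADs of ACs at *Dppa3* and *Dppa2* are short and lie between PADs, whereas *Sox2* lies in long non-PADs in ACs and thymus.

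*Gdf3*, *Dppa3* and *Nanog* lay together in a PAD of 3900 kb in ESCs (chr6:121508298-125408040), of 5673 kb in NPCs and of 1417 kb in the thymus. These PADs held 86, 108 and 27 protein-coding genes. *Nanog* was 1153 kb from the nearest border in ESCs, 2761 kb in NPCs, 66.0 kb in ACs and 639 kb in the thymus. The value in ACs was thus the lowest of the 4, although the gene remained in a PAD of 1677 kb.

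The border of ACs fell between *Dppa3* and *Nanog*, whose bodies lie 77.2 kb apart. Of the 15 fragment ends between them, all were PAD in ESCs, NPCs and thymus, and 9 were PAD in ACs. The 6 non-PAD ends followed *Dppa3* directly, and the 9 PAD ends reached *Nanog*. *Dppa3* lay in a PAD, 1070 kb from a border in ESCs, 2678 kb in NPCs and 695 kb in the thymus, and in a non-PAD, 16.7 kb from the border, in ACs. *Gdf3* followed with 1049, 2657 and 674 kb inside PADs and 37.3 kb outside in ACs. In ACs *Dppa3* and *Nanog* therefore lay on opposite sides of a border, and 71.3% of the 1 Mb centered on *Dppa3* belonged to PADs.

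The non-PAD that held *Dppa3* and *Gdf3* in ACs measured 287 kb (chr6:122308166-122595045), with 43 fragment ends. A share of 1.78% of genes in non-PADs of ACs lay in a smaller domain. Besides *Dppa3* and *Gdf3* it held genes such as *Apobec1*, which encodes an RNA editing enzyme, and *Mfap5*, which encodes a microfibril protein. After *Gdf3*, *Apobec1* was the nearest gene that shared the domains of *Dppa3* in all 4 cell types. *Slc2a3*, a glucose transporter gene 58.3 kb from *Nanog*, was the nearest of 15 genes that shared the 4 domains of *Nanog*.

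*Dppa4* and *Dppa2* shared a PAD of 726 kb in ESCs (chr16:47711723-48437248), of 986 kb in NPCs and of 2933 kb in the thymus. In ACs they lay in a non-PAD of 170 kb (chr16:48160182-48329704) that held *Gm7204* as its other protein-coding gene. *Dppa2* was 122 kb inside a PAD in ESCs, 119 kb in NPCs and 1261 kb in the thymus, and 14.5 kb outside in ACs. *Dppa4* was 148, 92.6 and 1287 kb inside and 40.6 kb outside. The thymus values were the highest of the 4 for both genes.

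The PADs of this cluster in ESCs and NPCs overlapped without sharing borders. The lower borders lay 485 kb apart and the higher borders 745 kb, and the genes sat near the higher border in ESCs and near the lower border in NPCs. The non-PAD of ACs rested on 16 fragment ends, and 0.998% of genes in non-PADs of ACs lay in a smaller domain. The sequence around it was mostly PAD in ACs, with 83.0% of the 1 Mb centered on *Dppa2*. *Morc1*, the germ cell gene next to *Dppa2*, was PAD in ACs where *Dppa2* was not, and non-PAD in ESCs where *Dppa2* was PAD. No fragment end lies between the higher edge of *Dppa2* and the AC border, which was set in the middle of the interval from the intronic end of *Dppa2* to the next end. With the border at the PAD's own first end, the distance of *Dppa2* in ACs was 31.8 kb instead of 14.5 kb.

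**Figure D3:**
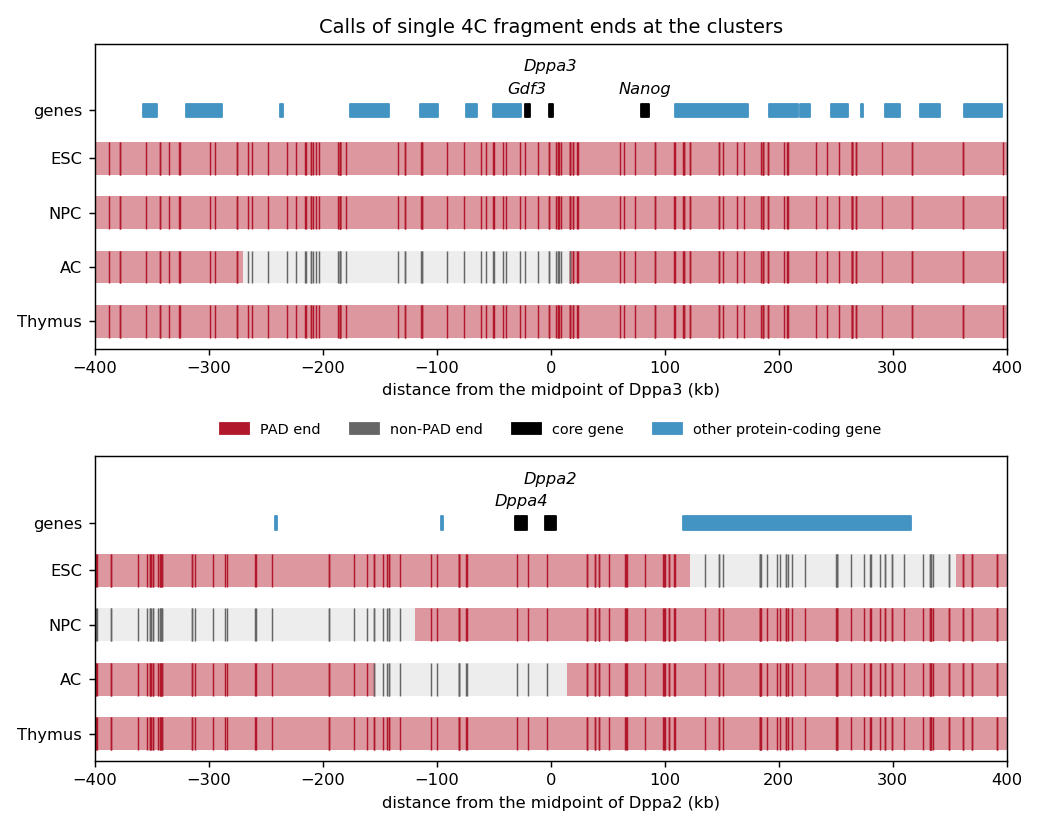
Calls of the single fragment ends (vertical lines; red for PAD, gray for non-PAD) within 400 kb of *Dppa3* (top) and *Dppa2* (bottom), with the domains as shaded bands, the distance in kb on the x axis and protein-coding genes above. In ACs the non-PAD ends form unbroken runs of 43 ends at *Gdf3* and *Dppa3* and of 16 ends at *Dppa4* and *Dppa2*, with *Nanog* on the PAD side.

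*Sox2* lay in a PAD of 900 kb in ESCs (chr3:34254261-35154537) and of 1978 kb in NPCs, and in a non-PAD of 3523 kb in ACs and of 4555 kb in the thymus. The gene was 296 and 435 kb inside the PADs and 468 and 1162 kb outside them. In the 1 Mb centered on the gene, PADs covered 89.4% in ESCs and 93.5% in NPCs, against 3.23% in ACs and 0% in the thymus, so the difference extended over the whole neighborhood. The ESC PAD held *Sox2* as its only protein-coding gene, and no other protein-coding gene lay within 500 kb of its midpoint. The PAD call in ESCs was thus that of a region of 160 fragment ends without another protein-coding gene. Other gene types were not counted, and the annotation also places *Sox2ot* at the ends nearest to *Sox2*. *Dnajc19*, the nearest gene with the opposite call in ESCs, lay 583 kb away.

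*Pou5f1* was outside PADs in ESCs, ACs and thymus and in a PAD in NPCs. The 4 domains measured 239 kb in ESCs (chr17:35449341-35687954), 3931 kb in NPCs, 2673 kb in ACs and 3848 kb in the thymus. The distance to the nearest border was 42.6 kb in ESCs, 228 kb in NPCs, 975 kb in ACs and 1776 kb in the thymus. The ESC value was the lowest, and PADs covered 66.2% of the 1 Mb centered on the gene in ESCs but 0% in ACs and thymus. With gaps over 100 kb between ends taken as ends of a domain, the distance was 341 kb in both ACs and thymus, and the domains measured 568 kb in NPCs and 815 kb in both ACs and thymus.

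The ESC call of *Pou5f1* rested on few fragment ends. Its non-PAD of 239 kb contained 6 ends, or 1 per 39.8 kb, and 2.65% of genes in non-PADs of ESCs lay in a smaller domain. In the 1 Mb centered on *Pou5f1* the ends numbered 8.0 per 100 kb, and 4.39% of all genes had a lower density around them. The part of this low density in the ESC call was not tested. The domain also held *Tcf19*, *Cchcr1* and *Psors1c2*, which shared all 4 domains with *Pou5f1*, and class I genes of the major histocompatibility complex such as *H2-Q10*. *Cdsn*, the corneodesmosin gene at 46.2 kb, was in a PAD in ESCs.

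*Esrrb* is the longest of the 10 genes, with a body of 161 kb that contains 27 fragment ends. It lay in a non-PAD of 3912 kb in ESCs (805 kb from the border), in a PAD of 6837 kb in NPCs (1138 kb), in a non-PAD of 3544 kb in ACs (877 kb) and in a non-PAD of 10361 kb in the thymus (2322 kb). In ESCs this was the greatest distance among the 4 core genes outside PADs. The 1 Mb centered on *Esrrb* was entirely PAD in NPCs and entirely non-PAD in the other 3 cell types. A further 29 genes shared its 4 domains, among them *Vash1* and *Angel1*.

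*Klf4* was outside PADs throughout, in domains of 885 kb in ESCs, 415 kb in NPCs, 2618 kb in ACs and 3568 kb in the thymus. Its distance to the nearest border was 337, 130, 593 and 567 kb, lowest in NPCs. The lower borders of its non-PADs in ESCs, ACs and thymus coincided within 45.0 kb, at most 593 kb from the gene, while the higher borders lay between 977 and 2665 kb apart. Of all borders, 15.0% in ESCs had an AC border of the same direction within 50 kb and 7.11% had such a thymus border. *Rad23b*, at 159 kb, was the gene that shared all 4 domains with *Klf4*. In NPCs the non-PAD held these 2 genes.

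*Zfp42* was 131 kb outside a PAD in ESCs, 108 kb in NPCs and 111 kb in ACs, and 2019 kb inside a PAD of 4461 kb in the thymus. The distances in the 3 cultured cell types were close to each other, and the thymus differed from them in call and distance. The non-PAD of NPCs was larger, with 3525 kb, since its lower border lay 2559 kb from that of ESCs. The higher border lay within 22.3 kb in the cultured cells and, between NPCs and ACs, within 2.49 kb. In ESCs and ACs the lower border coincided as well, within 7.5 kb, so that the same non-PAD of 989 and 977 kb was found in both. It held *Triml1*, *Triml2* and *Gm2221* besides *Zfp42*. *Adam26b*, at 223 kb across the border, was in a PAD in all 4 cell types.

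**Figure D4:**
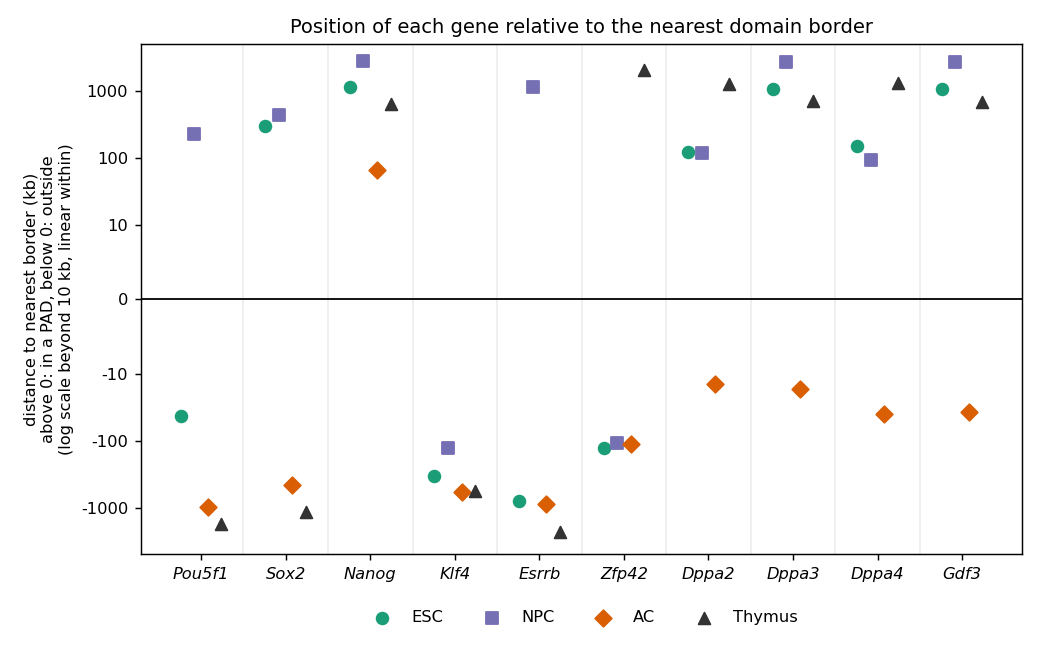
Distance from the midpoint of each core gene to the nearest domain border in kb (y axis, logarithmic beyond 10 kb on either side of 0), with PAD positions above 0 and non-PAD positions below, for the 4 cell types (symbols). In ACs *Dppa2*, *Dppa3*, *Dppa4* and *Gdf3* sit 14.5 to 40.6 kb outside a PAD, and *Nanog* sits 66.0 kb inside.

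Counted gene by gene, the core genes had their lowest median distance to a border in ACs. Their median distance was 88.4 kb in ACs, compared with 683 kb for all genes, and 4 of 10 were within 50 kb of a border, compared with 6.21% of all genes. These 4 are *Dppa2*, *Dppa3*, *Dppa4* and *Gdf3*, at 2 loci, so the low median rests on the clusters. *Pou5f1*, *Sox2*, *Klf4* and *Esrrb* were farther from a border in ACs (975, 468, 593 and 877 kb) than in ESCs (42.6, 296, 337 and 805 kb). *Zfp42* went the other way, with 111 kb in ACs and 131 kb in ESCs. A median by locus was not computed. In ESCs the median was 316 kb (477 kb for all genes), with 1 gene within 50 kb (8.27% of all genes). In NPCs it was 331 kb (618 kb for all genes) and in the thymus 1211 kb (982 kb for all genes), with 0 genes within 50 kb in either. The group was farthest from borders in the thymus, as were all genes by their median. There 6 of 10 core genes were more than 1 Mb away, compared with 49.5% of all genes. *Pou5f1* is among these 6, and its thymus distance was 341 kb with gaps over 100 kb taken as ends of a domain.

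**Figure D5:**
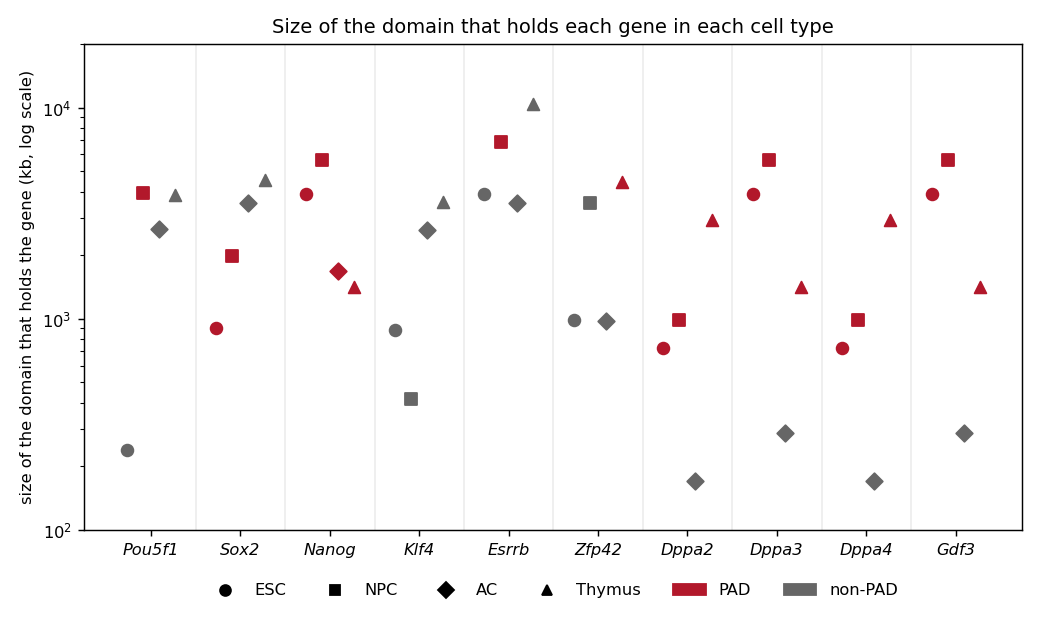
Size in kb (y axis, logarithmic) of the domain that holds each core gene, with the cell type as the symbol and PADs in red and non-PADs in gray. The smallest are the non-PADs of ACs at *Dppa2* and *Dppa4* (170 kb), the non-PAD of ESCs at *Pou5f1* (239 kb) and the non-PAD of ACs at *Dppa3* and *Gdf3* (287 kb).

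The loci differed in sequence. GC content in the 1 Mb centered on the gene ranged from 39.6% at *Zfp42* to 48.9% at *Pou5f1*, around the median of 44.1% of all genes, and the number of other protein-coding genes within 500 kb ranged from 0 at *Sox2* to 65 at *Pou5f1*, around a median of 15. The promoters fell into a CpG-rich pair and the remainder. *Klf4* had 116 CpGs and *Sox2* 86 in the 1 kb around the transcription start site, above the upper quartile of all genes (71), while the other 8 had between 16 and 30, below the median of 42. The *Klf4* and *Sox2* promoters were both in non-PADs in ACs and thymus, but 9 of all 10 core genes were outside PADs in ACs. In ESCs and NPCs *Sox2* was in PADs and *Klf4* was not. Of the 6 core genes in thymus PADs, the CpG counts were between 16 and 28, and among the 4 outside they were 23 at *Esrrb*, 30 at *Pou5f1*, 86 and 116, so that the groups overlapped. Over all genes, the median was 14.5 CpGs in thymus PADs and 49.0 outside.

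The wider network was described with 46 genes outside the core list that could be placed. Of these, 18 (39.1%) lay in PADs of ESCs, 33 (71.7%) in those of NPCs, 10 (21.7%) in those of ACs and 4 (8.7%) in those of the thymus. Compared with all genes, the shares were lower in ESCs, ACs and thymus and higher in NPCs. Of the 46, 15 were in PADs in ESCs and outside in the thymus, compared with 26.5% of all genes, and 1 (*Sox3*) was the other way around, compared with 6.06%. The thymus share of the network genes lay below that of all genes, whereas the share of the core genes lay above it. That core share counts the genes of a cluster singly, and its 6 genes lie at 3 of 7 loci. The pattern of *Dppa2*, *Dppa3*, *Dppa4* and *Gdf3* occurred at 0 of the 46, a count that differs little from the 1.39% of all genes with this pattern.

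Among the 6 genes of the LIF pathway, which sustains naive ESCs through JAK and STAT signaling, 3 were in PADs in ESCs, 5 in NPCs and 2 in ACs, and 1 in the thymus. *Lifr*, the receptor gene, was in PADs in all 4 cell types, 3731 kb from a border in ESCs. *Stat3*, the transcription factor of the pathway, was outside in ESCs (1024 kb), ACs and thymus, and *Socs3*, its feedback inhibitor, was outside in all 4. *Lif* and *Jak1* were in PADs in ESCs and outside in the thymus.

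Of 10 further factors of the naive network, 5 were in PADs in ESCs (46.5% of all genes) and 5 in NPCs (68.5%). In ACs 1 was in a PAD (34.9% of all genes), and in the thymus 1 (26.1%). *Klf5*, *Tcfcp2l1*, *Nr5a2* and *Tcf7l1* had the pattern of *Sox2*, with PAD calls in ESCs and NPCs and non-PAD calls in ACs and thymus. This pattern was found at 12.2% of all genes. *Klf2*, *Tbx3*, *Nr0b1* and *Sall4* were outside PADs in all 4 cell types, as were *Klf4* and 20.1% of all genes. *Klf2* is a relative of *Klf4* with overlapping function in ESCs, but nothing about shared function can be read from so common a pattern. *Prdm14* was in PADs in ESCs, ACs and thymus and outside in NPCs.

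Of 10 further markers and targets of ESCs, 3 were in PADs in ESCs (46.5% of all genes) and 7 in NPCs (68.5%). In ACs 2 were in PADs (34.9% of all genes), and in the thymus 0 (26.1%). *Utf1*, *Fgf4* and *Fbxo15* were the 3 in ESC PADs. *Fgf4*, a direct target of the *Pou5f1* and *Sox2* products, lay 35.1 kb inside a PAD of 515 kb in ESCs. *Tet2*, which oxidizes methylated cytosine, was in PADs in NPCs and ACs and outside in ESCs and thymus.

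Of the 6 genes of the Nodal pathway, to whose ligands *Gdf3* is related, 2 were in PADs in ESCs, 5 in NPCs and 1 in ACs, and 0 in the thymus. The 2 in ESCs were the adjacent Nodal inhibitors *Lefty1* and *Lefty2*, in a PAD of 678 kb. In ACs a border passed between them, with *Lefty1* 13.7 kb inside a PAD and *Lefty2* 26.9 kb outside, as between *Nanog* and *Dppa3*. Of 4 genes of the formative and primed states, *Fgf5* was in PADs in ESCs, ACs and thymus, and *Otx2*, *Pou3f1* and *Dnmt3b* were outside PADs in these 3 cell types.

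Of 10 relatives of the core genes, 4 were in PADs in ESCs (46.5% of all genes) and 9 in NPCs (68.5%). In ACs 3 were in PADs (34.9% of all genes), and in the thymus 1 (26.1%). *Esrra* and *Esrrg* had the same 4 calls as *Esrrb*, and *Gdf1* had the calls of *Esrrb* rather than those of *Gdf3*. *Pou2f1* and *Pou2f2* were in PADs in ESCs, unlike *Pou5f1*. *Yy1*, from whose family *Zfp42* derives, was in PADs in NPCs only, and *Yy2* was in PADs in the 3 cultured cell types and outside in the thymus, the reverse of *Zfp42*. *Sox3*, a close relative of *Sox2*, was outside in ESCs and in PADs in NPCs, ACs and thymus. The calls of *Esrrb* are the pattern of 23.9% of all genes and were found at 4 of the 10 relatives, *Yy1* and *Gdf1* included, so that nothing about families can be read from them.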

How the data were processed

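The deposited calls state PAD or non-PAD for 399232 4C fragment ends of mm9 in ESCs, NPCs, ACs and thymus (13 samples). The authors cut crosslinked chromatin with ApoI and MfeI and ligated it. After reversal of the crosslinks, the purified DNA was cut with NlaIII, ligated again and then cut with ApoI and AcuI before amplification. They classed each fragment end by its reads, fitted a two-state hidden semi-Markov model to each replicate and combined the replicates by majority vote. The aligner was not given in the sources used here. Since the deposited table has 0 columns of single samples, no depth could be computed, and no SD, interval or test over replicates. Runs of ends with 1 call formed the domains, and a border was set halfway between neighboring ends whose calls differed. In the NCBIM37 sequence, 97.8% of the ends started with a site of MfeI or NlaIII. Genes came from GENCODE vM1 and were placed by their midpoint, taken from the longest transcript; 22329 of 22380 protein-coding genes could be placed. Distances to a border were measured from this midpoint, and size percentiles were taken over genes with the same call. The placement was tested on simulated calls.

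The core genes, the network list and the alternatives were chosen with earlier results of these data known, and the CpG counts and the offsets of borders were added after the calls were seen. All core genes were named, and for each the nearest gene with the other call and up to 3 genes that shared most of its domains; network genes were named by their role or by a difference between ESCs and thymus. *Tcfcp2l1* was found under an older symbol, and *Pou5f2* and *Sox1* were not placed under these names. A further gene that the naming rule selects is not reported here. Alternatives were placement by transcription start site, by any overlap with a PAD, by the nearest end or by the span of all transcripts, borders at the PAD's own last end, absorption of runs under 5 ends, and omission of gaps over 100 kb; for the shares of all genes they were autosomes only and all gene types. Python 3.11.15, numpy 2.4.6, pandas 2.3.3, scipy 1.17.1, pysam 0.24.0 and matplotlib 3.10.9 were used.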

Additional observations from a re-analysis of the deposited data

How the results depend on the processing

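The number of core genes in PADs of each cell type, the number with the same call in all 4 and the number whose ESC and thymus calls differ were the same under all 7 alternatives of placement, borders and filters. The number of core genes with the same call was 4 instead of 2 with NPCs left out, an alternative chosen after seeing the data. Placement by any overlap and by the nearest end gave calls only, with no distance or size. No distance changed its sign under the other 5 alternatives. With gaps over 100 kb treated as ends of a domain, 7 of 40 distances and 14 of 40 domain sizes moved by over 1.5 times, the distances being those of *Pou5f1* in ACs and thymus (341 kb), *Nanog* in ESCs and NPCs (646 kb), *Esrrb* in the thymus (1138 kb) and, in NPCs, *Dppa3* (728 kb) and *Gdf3* (749 kb), and with borders at the PAD's own last end only the distance of *Dppa2* in ACs did so. With all gene types, the share in PADs was 48.4% in ESCs, 67.4% in NPCs and 38.5% in ACs, and it was 30.5% in the thymus, and on autosomes alone it was 69.4% in NPCs, outside the counting interval of the main values. No paired analysis was possible because the calls carry no replicates. Distances are limited by the spacing of fragment ends (median 2887 bp), which among the core genes was widest at *Pou5f1*, and the replicate support of each call was not analysed here.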

Other observations

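Some single genes of the wider network lay close to a border, and examples are given here. Such positions are found among genes in general. The share of all genes within 50 kb of a border ranged from 4.73% (thymus) to 8.27% (ESCs). Whether the network genes lay nearer to borders than other genes was not tested. *Klf5*, a factor of the naive network, was 9.16 kb inside a PAD in NPCs and 235 kb inside in ESCs. *Tet2* was 7.61 kb outside a PAD in the thymus and 856 kb outside in ESCs. *Fgf5*, a marker of the primed state, lay 30.4 kb inside a PAD of 236 kb in ESCs and 862 kb inside a PAD in the thymus. *Sox3* lay 21.0 kb inside a PAD in NPCs and 76.3 kb inside a PAD in the thymus.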
